A study of Vitis vinifera with 36 samples.

Results

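The genes described here are 45 of 28119 listed genes. Their expression rose during berry ripening in the winter season of both ‘Muscat Hamburg’ and ‘Victoria’. In the summer season of both varieties it fell, stayed level or rose by less than 1.5-fold. Expression was given as FPKM, which scales the fragments on a gene to its transcript length and to the size of the library. For each gene the mean of 3 replicates at E-L 38 was divided by that at E-L 35 after 0.5 was added to both, and this value is called the stage ratio. A gene was a member with a stage ratio of at least 3 in the winter season of both varieties, a winter mean of at least 3 FPKM at E-L 38 in both, and a stage ratio under 1.5 in the summer season of both. These conditions used the E-L 35 and E-L 38 libraries, so the values at those stages are given as a description without a test. The 12 libraries at E-L 36 entered no part of the choice, and tests compared only these. The filter on low counts and the estimate of the spread in these tests used all 36 libraries.

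Total RNA of de-seeded berries was sequenced in the dark-skinned ‘Muscat Hamburg’ and the white ‘Victoria’ grapes of Vitis vinifera, in the summer and the winter crop of 2014. Each crop was sampled at the onset of veraison (E-L 35), at the completion of veraison (E-L 36) and at harvest (E-L 38), giving 12 groups of 3 biological replicates and 36 libraries. All vines were grafted on SO4 rootstock, stood under rain shelters in southern China and carried both crops of the year, each forced with hydrogen cyanamide after pruning. Each replicate was a pool of berries, so it averaged over berries and vines, and fewer cells of a type and less RNA per cell cannot be told apart. The season stands here for everything that differed between the crops, including weather, day length, the time between the stages and the way in which the buds were forced, and these cannot be told apart.

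Veraison is the point at which a grape berry softens, begins to store sugar, loses acid and, in coloured varieties, accumulates anthocyanins in the skin. Ripening is accompanied by a broad change of the berry transcriptome, part of which responds to temperature and light. Double cropping places the ripening phase of the second crop in the autumn and winter, while the first crop ripens in the summer of the same year.

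Library totals ran from 5624449 to 18606068 estimated counts (median 10599908), and those at E-L 36 from 9061555 to 12678743. The varieties matched their labels in the genes of coloured skin: MYBA1, a regulator of anthocyanin synthesis (VIT_202s0033g00410), was at 11.9 to 71.6 FPKM in the 18 ‘Muscat Hamburg’ libraries and at 0 to 0.63 FPKM in the 18 ‘Victoria’ libraries. By rank correlation over genes, 3 libraries were closer to another group than to their own, namely replicate 1 of ‘Victoria’ summer E-L 36, of ‘Victoria’ summer E-L 38 and of ‘Muscat Hamburg’ summer E-L 36. Without these 3 libraries the conditions held for 47 genes, among them all 45. Only the ‘Victoria’ summer E-L 38 library among them entered the conditions, so the E-L 36 libraries could not change this number. Some replicates differed by little more than the sampling noise of counting: in 8 of 36 replicate pairs the mean chi-square per gene was 1.35 to 1.88, where 1 is sampling noise alone, against 2.26 to 56.6 in the other 28. The 8 pairs were all 3 of ‘Victoria’ winter E-L 36, all 3 of ‘Muscat Hamburg’ winter E-L 35, replicates 1 and 2 of ‘Muscat Hamburg’ winter E-L 36, and replicates 2 and 3 of ‘Victoria’ winter E-L 38. The p-values below rest on an estimate of the spread shared by all 12 groups, and the part that these libraries add to it may be technical. With the libraries of such pairs averaged and counted once, 45 genes met the conditions, 43 of them the same. Only the pair of ‘Victoria’ winter E-L 38 could change this number. The conditions do not use E-L 36, and averaging all 3 libraries of a group leaves its mean as it was.

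As the conditions required, the 45 genes rose in the winter season of both varieties. In summer they fell, stayed level or rose by less than 1.5-fold. The winter stage ratio ran from 3.08 to 37.0 in ‘Muscat Hamburg’ (median 4.73) and from 3.05 to 115 in ‘Victoria’ (median 6.61). The summer stage ratio ran from 0.0922 to 1.50 in ‘Muscat Hamburg’ (median 0.893) and from 0.244 to 1.33 in ‘Victoria’ (median 0.766). It corresponded to a fall of more than 1.5-fold for 11 genes in each variety, of which 5 were the same in both, and 28 genes stayed within 1.5-fold in the summer season of both varieties. With 0.5 added to both, the winter and the summer means at E-L 35 lay within 2-fold for 42 genes in ‘Muscat Hamburg’ and 38 in ‘Victoria’. The added 0.5 draws low values together, so some genes with low means differed by more than 2-fold without it. At harvest the winter mean was 1.37-fold to 150-fold the summer mean in ‘Muscat Hamburg’ (median 6.79-fold) and 1.79-fold to 238-fold in ‘Victoria’ (median 10.6-fold), again with 0.5 added to both. Every winter library at E-L 38 was above every winter library at E-L 35 for 45 members in ‘Muscat Hamburg’ (24.8% of all tested genes) and for 44 in ‘Victoria’ (22.3%), and above every summer library at E-L 38 for 44 (24.4%) and 45 (28.5%), as the choice of the genes largely fixed.

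**Figure D1:**
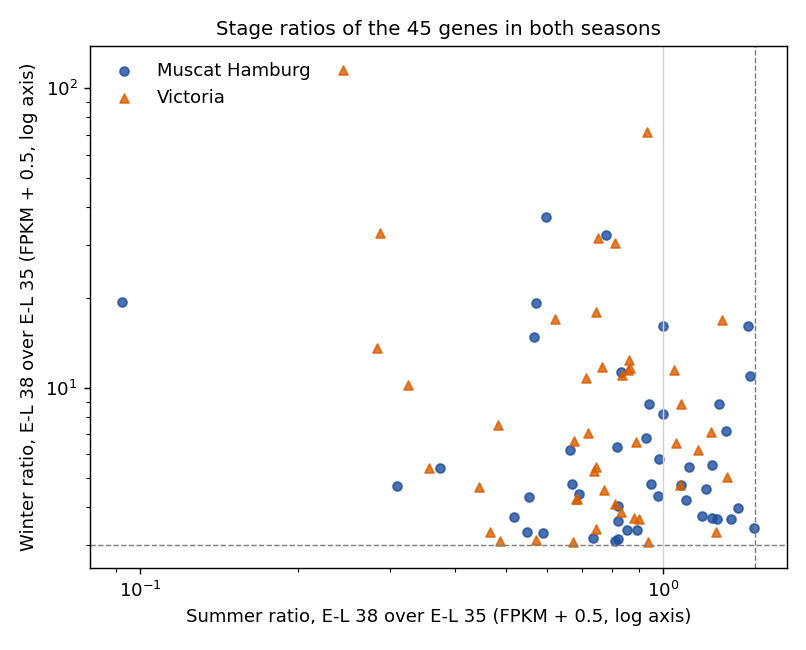
Stage ratio (E-L 38 over E-L 35, mean FPKM of 3 replicates plus 0.5, log axes) of the 45 genes in the summer season on the x axis and in the winter season on the y axis, with 1 point per gene and variety; the dashed lines mark the limits of 1.5 and 3 that chose the genes. The points span winter ratios from 3.05 to 115, while the summer ratios lie on both sides of 1, down to 0.0922.

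The conditions differed in how many genes they removed. The winter stage ratio was at least 3 in both varieties for 137 genes, of which 117 also reached 3 FPKM in both at harvest. Of these 117, 96 had a summer ratio under 1.5 in ‘Victoria’ and 49 in ‘Muscat Hamburg’, and 8 rose at least 3-fold in the summer season of both varieties. The mirrored conditions, with the seasons exchanged, were met by 44 genes. The members just inside the limit on the winter ratio were VIT_212s0059g01090 at 3.05, VIT_200s0125g00190 at 3.07 and both VIT_214s0068g02120 and VIT_219s0014g01170 at 3.08, taking the smaller of both varieties. Just outside were VIT_214s0171g00410 at 2.98, VIT_211s0206g00060 at 2.95, VIT_214s0068g01840 at 2.94 and VIT_202s0033g01170 at 2.92. On the summer ratio the members nearest the limit were VIT_217s0000g03850 at 1.50 (below 1.5 before rounding), VIT_202s0025g00810 at 1.47, VIT_212s0134g00030 at 1.45 and VIT_211s0016g05600 at 1.39. Those outside began with VIT_219s0014g04790 at 1.50 (above 1.5 before rounding) and VIT_204s0023g02200 at 1.51, followed by VIT_204s0008g03500 at 1.52 and VIT_206s0004g01640 at 1.53. On the winter level at E-L 38, taking the lower of both varieties, the members nearest the limit were VIT_218s0001g04380 at 3.17 FPKM, VIT_206s0004g06935 at 3.41 FPKM, VIT_206s0004g01935 at 3.47 FPKM and VIT_217s0000g10090 at 3.75 FPKM. The genes just below it were VIT_214s0066g01950 at 2.92 FPKM, VIT_201s0011g03720 at 2.68 FPKM, VIT_209s0002g09140 at 2.60 FPKM and VIT_216s0039g00270 at 2.57 FPKM. When each of the 24 libraries at E-L 35 and E-L 38 was left out in turn, 41 to 51 genes met the conditions, and 27 of the 45 did so in every case.

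The summed FPKM of the 45 genes was no higher at harvest than at E-L 35 in the summer season. In ‘Muscat Hamburg’ it was 282 ± 18.1 at E-L 35, 228 ± 29.9 at E-L 36 and 260 ± 52.4 at E-L 38 (SD, n = 3), and in ‘Victoria’ it was 229 ± 46.3, 168 ± 9.20 and 167 ± 12.8. In the winter season the sum started at a like level, 297 ± 5.37 in ‘Muscat Hamburg’ and 240 ± 26.2 in ‘Victoria’ (SD, n = 3). It then stood at 1140 ± 96.8 and 1157 ± 30.3 at E-L 36, and at 1716 ± 88.3 and 2118 ± 8.54 at E-L 38 (SD, n = 3). A few abundant genes made up much of these sums, so the genes are described singly below.

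VIT_200s0253g00080 had the highest winter level at harvest. Its winter E-L 38 libraries held 357, 329 and 394 FPKM in ‘Muscat Hamburg’ and 393, 376 and 363 FPKM in ‘Victoria’. The summer libraries of that stage held 1.22, 1.72 and 2.76 FPKM in ‘Muscat Hamburg’ and 1.75, 0.90 and 0.61 FPKM in ‘Victoria’. At harvest this gene was thus at a near equal level in the winter season berries of both varieties, and the winter mean was 150-fold the summer mean in ‘Muscat Hamburg’ and 238-fold in ‘Victoria’, with 0.5 FPKM added. In summer it fell in ‘Muscat Hamburg’ from 35.6, 23.2 and 17.9 FPKM at E-L 35, the lowest summer ratio of all 45 genes. The path of the winter rise was not the same in the varieties: at E-L 36 the ‘Muscat Hamburg’ libraries held 5.97, 7.24 and 26.3 FPKM, no more than at E-L 35 (18.9, 18.5 and 17.2 FPKM) in 2 of 3, while the ‘Victoria’ libraries had already reached 81.4, 80.0 and 76.3 FPKM from 2.25, 3.58 and 2.51 FPKM. Its estimated counts were not whole numbers in 27 of 36 libraries, so some of its reads were divided with other genes and its level is less certain.

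VIT_204s0008g05770 was abundant in every group. In the winter season of ‘Muscat Hamburg’ it went from 62.4, 62.8 and 64.5 FPKM at E-L 35 through 132, 135 and 117 FPKM at E-L 36 to 251, 227 and 225 FPKM at E-L 38. The winter course of ‘Victoria’ was 38.1, 35.7 and 37.1 FPKM, then 131, 128 and 126 FPKM, then 235, 189 and 187 FPKM. VIT_204s0008g05770 therefore climbed by steps of about the same size at both intervals in ‘Muscat Hamburg’, and mainly before E-L 36 in ‘Victoria’. Its summer libraries stayed at 39.7 to 80.7 FPKM in ‘Muscat Hamburg’ and at 16.7 to 38.0 FPKM in ‘Victoria’. VIT_211s0016g05600 had a like course from a similar level in both varieties, with winter libraries of 134, 118 and 127 FPKM in ‘Muscat Hamburg’ and 185, 138 and 136 FPKM in ‘Victoria’ at E-L 38 against 46.9 to 59.6 and 28.6 to 40.1 FPKM in summer. VIT_208s0040g00510 and VIT_206s0004g03890 completed the 4 members whose mean was at least 10 FPKM in all 6 summer groups. For VIT_208s0040g00510 the winter E-L 38 libraries ran from 71.2 to 108 FPKM in ‘Muscat Hamburg’ and from 87.9 to 93.8 FPKM in ‘Victoria’, and the summer ones from 24.6 to 30.8 and from 11.8 to 26.7 FPKM. For VIT_206s0004g03890 the same ranges were 67.6 to 74.4 and 66.2 to 86.5 FPKM in winter, and 14.2 to 16.3 and 13.4 to 18.4 FPKM in summer. In these 4 genes, a gene expressed in all berries stood higher at the winter harvest, and no winter library overlapped a summer library of that stage.

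**Figure D2:**
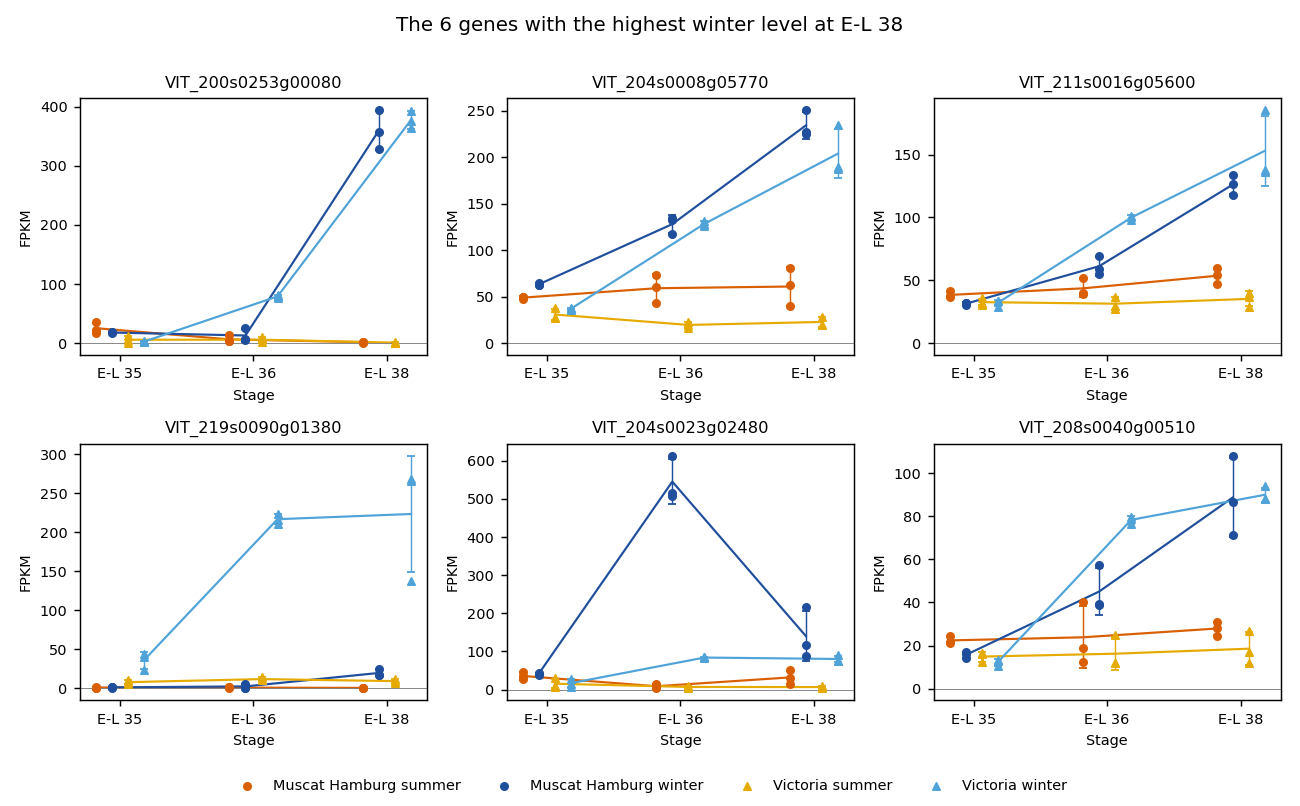
FPKM of the 6 genes with the highest winter level at E-L 38 (y axis) against stage (x axis), with 1 point per library, lines through the means of 3 replicates, bars of 1 SD, orange and yellow for the summer season, dark and light blue for the winter season. VIT_200s0253g00080 reaches 329 to 394 FPKM in the winter berries of both varieties, VIT_219s0090g01380 lies at 137 to 268 FPKM in ‘Victoria’ winter berries at E-L 38 and at 16.5 to 24.4 FPKM in those of ‘Muscat Hamburg’, and VIT_204s0023g02480 is highest at E-L 36 in ‘Muscat Hamburg’ winter berries, at 507 to 614 FPKM.

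A second group of members was close to 0 in summer. In 10 of the 45 the mean was under 1 FPKM in all 6 summer groups, while 20 had a mean of at least 1 FPKM in all 6, and none was listed at 0 in all 18 summer libraries. VIT_219s0014g00440 came nearest, with 0.11 FPKM in 1 ‘Victoria’ library at E-L 35 and 0 in the other 17. In the winter season of ‘Victoria’ it went from 0.39, 0.65 and 0 FPKM at E-L 35 through 3.27, 3.37 and 2.62 FPKM to 73.8, 49.5 and 56.4 FPKM at harvest. In ‘Muscat Hamburg’ it was at 0 in all 3 winter libraries of E-L 35 and at 6.54, 4.87 and 11.3 FPKM at harvest. This gene thus appeared in both varieties late in the winter season, at a higher level in ‘Victoria’. VIT_217s0000g10090 was similar at a lower level, with 0 in all 9 summer libraries of ‘Muscat Hamburg’, at most 0.09 FPKM in those of ‘Victoria’, and winter harvest values of 5.24, 2.32 and 3.68 FPKM in ‘Muscat Hamburg’ and 6.87, 4.58 and 5.24 FPKM in ‘Victoria’.

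Among these low genes, some libraries of a group stood far apart. VIT_202s0025g04230 held 4.49, 126 and 132 FPKM in the winter E-L 38 libraries of ‘Victoria’, so that replicate 1 was far below the other libraries, and at E-L 35 it held 0.66, 11.96 and 1.59 FPKM. In ‘Muscat Hamburg’ the winter harvest values were 1.54, 11.04 and 3.24 FPKM. Its summer libraries held at most 0.71 FPKM in either variety. VIT_212s0134g00030 held 60.3, 22.2 and 23.5 FPKM in the winter E-L 38 libraries of ‘Victoria’ and 4.59, 28.8 and 9.93 FPKM in those of ‘Muscat Hamburg’, with at most 0.53 FPKM in any summer library. For VIT_207s0151g00760 they were 13.6, 1.94 and 3.80 FPKM in ‘Victoria’ and 23.7, 19.8 and 46.0 FPKM in ‘Muscat Hamburg’, and the summer libraries held at most 0.65 FPKM. In each of these 3 genes all winter harvest libraries were above all summer libraries of the same variety and stage, but the size of the rise depended on the library. The estimated counts of VIT_202s0025g04230 were not whole in 19 libraries and those of VIT_212s0134g00030 in 15, so reads of both were divided with other genes.

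**Figure D3:**
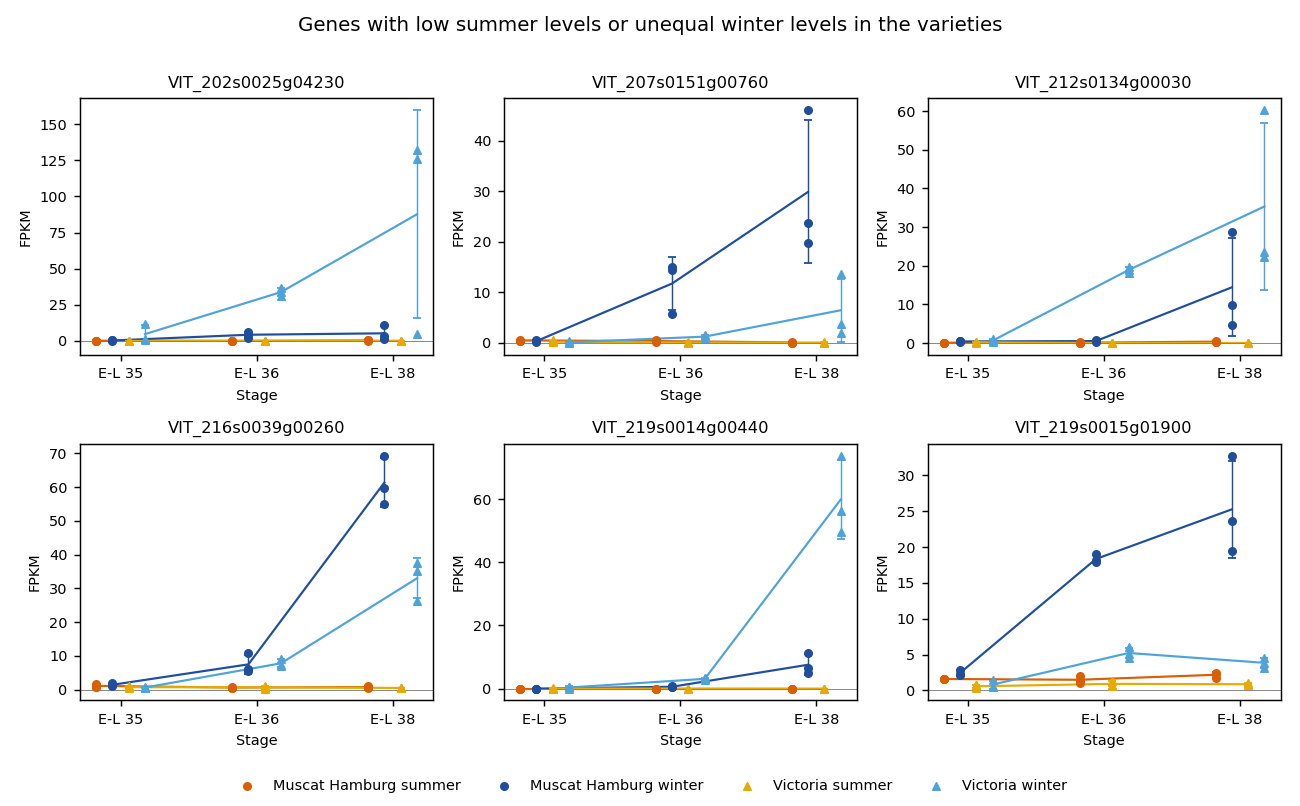
FPKM (y axis) against stage (x axis) of 6 genes chosen after their values were seen, because they were near 0 in summer or unequal between the varieties in winter; points are libraries, lines join the means of 3 replicates and bars are 1 SD, with the colours of the plot of the most abundant genes. VIT_219s0015g01900 and VIT_207s0151g00760 are higher in ‘Muscat Hamburg’ winter berries, VIT_219s0014g00440 is higher in those of ‘Victoria’, and VIT_202s0025g04230 spreads from 4.49 to 132 FPKM in the ‘Victoria’ winter berries at E-L 38.

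The varieties differed in how high the winter level was, without a common direction. With 0.5 FPKM added to both means, the winter level at harvest lay within 1.5-fold in both varieties for 24 genes, was over 1.5-fold higher in ‘Victoria’ for 10 and over 1.5-fold higher in ‘Muscat Hamburg’ for 11. VIT_219s0090g01380 was among the genes higher in ‘Victoria’ (11.3-fold). It held 137, 268 and 265 FPKM in the ‘Victoria’ winter libraries at E-L 38 and 17.4, 16.5 and 24.4 FPKM in those of ‘Muscat Hamburg’. In this gene ‘Victoria’ was also higher in summer, at 5.92, 9.56 and 11.2 FPKM against 0.35, 0.18 and 0 FPKM at the same stage. VIT_202s0025g00810 was 5.43-fold higher in ‘Victoria’, with 97.8, 98.9 and 103 FPKM against 19.2, 14.5 and 20.3 FPKM. VIT_205s0020g01080 was 4.04-fold higher in ‘Victoria’, with 78.6, 94.5 and 93.9 FPKM against 22.1, 19.3 and 23.6 FPKM. The opposite held for VIT_219s0015g01900, at 23.6, 19.5 and 32.8 FPKM in ‘Muscat Hamburg’ and 3.85, 3.12 and 4.59 FPKM in ‘Victoria’, and for VIT_200s0125g00190, at 30.6, 33.3 and 35.3 FPKM against 14.1, 6.57 and 7.08 FPKM. The libraries of the varieties did not overlap in any of these 5 genes. VIT_216s0039g00260 had the largest winter ratio when the smaller of both varieties was taken, 32.3 in ‘Muscat Hamburg’ and 30.4 in ‘Victoria’, and went to 59.7, 55.0 and 69.3 FPKM in ‘Muscat Hamburg’ and 26.3, 37.5 and 35.1 FPKM in ‘Victoria’.

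VIT_216s0039g00260 and another member, VIT_216s0039g00280, are separated by 1 listed gene ID, VIT_216s0039g00270. That gene rose in the winter season as well, with a stage ratio of 5.02 in ‘Muscat Hamburg’ and 6.13 in ‘Victoria’ against 1.29 and 0.549 in summer, and missed only the level condition, at 2.57 FPKM in ‘Victoria’. The stage ratios of VIT_216s0039g00280 were 4.04 and 3.39 in winter and 0.820 and 0.746 in summer. The listed genes beyond these 3 IDs did not share the course: for VIT_216s0039g00250 the winter ratios were 1.37 and 1.48, and for VIT_216s0039g00300 they were 0.561 and 0.570. No other members were so close in their IDs, the next nearest having 27 listed genes between them.

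At E-L 36, the stage that took no part in the choice, most of the 45 genes were already higher in the winter season berries. By filterByExpr, run over all 12 groups, 44 of the 45 had enough counts to be tested. A member could thus pass this filter through its winter E-L 38 libraries. VIT_212s0028g01060, with a listed length of 114 bases, was not tested. In ‘Muscat Hamburg’ 34 of the 44 were higher in winter by at least 2-fold at an adjusted p of at most 0.05 and 0 were lower, while the share over all 19736 tested genes was 9.8% higher and 8.97% lower. In ‘Victoria’ 41 of the 44 were higher and 0 lower, against 9.96% and 13.6% of all tested genes. At an unadjusted p under 0.05, 39 members were higher and 0 lower in ‘Muscat Hamburg’, against 24.5% and 25.4% of all tested genes, and 41 and 0 in ‘Victoria’, against 27.5% and 28.9%. DESeq2, which tested all 45, called 36 higher and 0 lower in ‘Muscat Hamburg’ (7.38% and 6.26% of the genes it tested) and 42 and 0 in ‘Victoria’ (7.25% and 9.91%). The median log2 fold change of the members was 2.15 in ‘Muscat Hamburg’ and 2.85 in ‘Victoria’ (1.99 and 2.74 with genes at the limit of detection in summer set to their lower bound), against -0.02 over all tested genes in each variety. The members were higher in both varieties in 33 cases (4.53% of all tested genes), in ‘Victoria’ alone in 8, in ‘Muscat Hamburg’ alone in 1 and in neither in 2. Every winter library was above every summer library for 36 members in ‘Muscat Hamburg’, where this held for 25.1% of all tested genes, and for 43 in ‘Victoria’, against 27.1%. The contrast compares no library that the conditions used, although a gene that stayed higher from E-L 36 to harvest meets both. Its filter and its estimate of the spread did use those libraries. A fit of only the libraries compared tested 40 members in ‘Muscat Hamburg’ and called 30 higher, against 1471 of 16973 tested genes. In ‘Victoria’ it tested 43 members and called 40 higher, against 1658 of 17095.

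**Figure D4:**
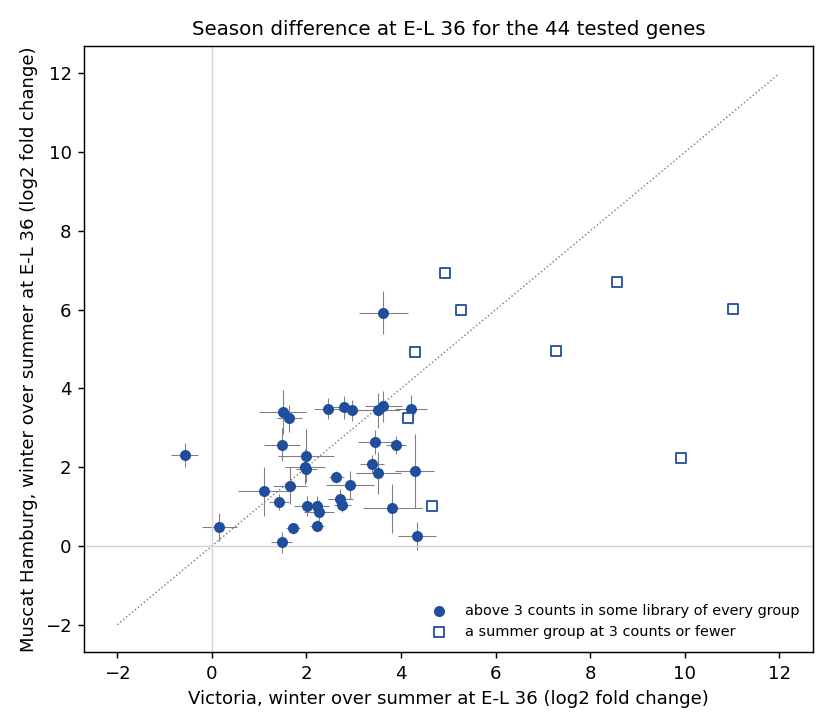
Log2 fold change of winter over summer season berries at E-L 36 in ‘Victoria’ (x axis) and ‘Muscat Hamburg’ (y axis) for the 44 tested genes, from edgeR on 3 libraries per group; bars are 1 SE, the dotted line marks equal values, and open squares without bars are genes with a summer group at 3 counts or fewer, whose fitted values are not bounds. All but 1 point lie above 0 on both axes, and more points lie on the ‘Victoria’ side of the line.

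VIT_204s0023g02480 showed the highest level of any member at E-L 36. Its winter libraries held 516, 507 and 614 FPKM in ‘Muscat Hamburg’ against 6.63, 3.59 and 15.9 FPKM in summer, a log2 fold change of 5.92 ± 0.54 (SE, adjusted p = 1.52e-09). In ‘Victoria’ they held 85.1, 84.9 and 82.0 FPKM against 9.35, 4.86 and 6.24 FPKM, a log2 fold change of 3.62 ± 0.51 (adjusted p = 1.23e-06). The difference of the season effect was 2.30 ± 0.70 on the log2 scale (adjusted p = 0.0213), larger in ‘Muscat Hamburg’. In the winter season of ‘Muscat Hamburg’ this gene then fell to 88.7, 216 and 117 FPKM at harvest, so that its highest level was at E-L 36, whereas in ‘Victoria’ it stayed at 75.2 to 89.4 FPKM.

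Several genes with high winter harvest levels were already well above summer at E-L 36 in both varieties. VIT_202s0025g00810 held 8.74, 8.07 and 9.45 FPKM in ‘Muscat Hamburg’ winter libraries against 1.05, 1.68 and 1.86 FPKM (log2 fold change 2.56 ± 0.22, adjusted p = 6.32e-10). In ‘Victoria’ it held 35.3, 32.4 and 33.2 FPKM against 1.77, 2.78 and 3.24 FPKM (3.90 ± 0.21, adjusted p = 1.32e-13). VIT_205s0020g01080 held 21.3, 20.7 and 22.9 FPKM against 2.41, 1.43 and 1.59 FPKM in ‘Muscat Hamburg’ (3.52 ± 0.29, adjusted p = 2.59e-10). For this gene the winter libraries of ‘Muscat Hamburg’ at E-L 36 and at harvest overlapped. VIT_219s0015g01900 held 18.2, 17.9 and 19.0 FPKM against 1.40, 0.99 and 2.08 FPKM in ‘Muscat Hamburg’ (3.49 ± 0.27, adjusted p = 9.94e-11), and 5.11, 6.04 and 4.53 FPKM against 1.30, 0.81 and 0.65 FPKM in ‘Victoria’ (2.46 ± 0.30, adjusted p = 1.18e-07). VIT_216s0039g00260 was higher by 3.55 ± 0.39 in ‘Muscat Hamburg’ (adjusted p = 4.09e-08) and by 3.62 ± 0.39 in ‘Victoria’ (adjusted p = 1.26e-08) on the log2 scale, and its neighbour VIT_216s0039g00280 by 1.12 ± 0.21 (adjusted p = 9.95e-05) and 1.42 ± 0.21 (adjusted p = 2.83e-06). VIT_216s0115g00170, whose winter ratios were 19.1 in ‘Muscat Hamburg’ and 11.4 in ‘Victoria’, held 24.5, 20.2 and 28.2 FPKM against 0.22, 0.78 and 0 FPKM in ‘Muscat Hamburg’ (5.99 ± 0.68, adjusted p = 6.34e-08). In ‘Victoria’ it was at least 14.0-fold higher, with 6.39, 10.5 and 9.19 FPKM against 0.34, 0.24 and 0 FPKM, a lower bound computed against 3 counts in each summer library.

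Other members were higher in ‘Victoria’ but did not pass the test in ‘Muscat Hamburg’. VIT_200s0253g00080, the member with the highest winter harvest level, was at 81.4, 80.0 and 76.3 FPKM in ‘Victoria’ winter libraries against 1.34, 10.3 and 6.49 FPKM in summer (log2 fold change 3.81 ± 0.62, adjusted p = 1.03e-05). In ‘Muscat Hamburg’ its winter libraries, 5.97, 7.24 and 26.3 FPKM, overlapped the summer ones, 3.17, 13.6 and 3.02 FPKM (0.95 ± 0.61, adjusted p = 0.218). The season effect was smaller in ‘Muscat Hamburg’ by 2.86 ± 0.87 on the log2 scale (adjusted p = 0.0202). VIT_201s0010g02040 held 8.41, 9.51 and 8.69 FPKM against 0.18, 0.50 and 0.70 FPKM in ‘Victoria’ (4.33 ± 0.41, adjusted p = 1.26e-09), while its winter and summer libraries overlapped in ‘Muscat Hamburg’ at 0.99 to 3.16 and 1.27 to 3.04 FPKM (0.26 ± 0.35, adjusted p = 0.592). VIT_219s0090g01380 held 224, 216 and 211 FPKM against 9.79, 14.1 and 10.5 FPKM in ‘Victoria’ (4.29 ± 0.41, adjusted p = 2.03e-09). In ‘Muscat Hamburg’ it held 0.32, 0.47 and 5.46 FPKM against 0.73, 0 and 0.89 FPKM, so that winter replicate 3 alone was above summer (1.91 ± 0.94, adjusted p = 0.102), and the difference between the varieties did not pass the test (-2.39 ± 1.28, adjusted p = 0.201). VIT_206s0004g03890 and VIT_211s0016g05600 were higher in ‘Muscat Hamburg’ by less than 2-fold, at 0.51 ± 0.14 (adjusted p = 0.00354) and 0.45 ± 0.14 (adjusted p = 0.0111) on the log2 scale, and by more than 2-fold in ‘Victoria’, at 2.22 ± 0.14 (adjusted p = 1.17e-12) and 1.72 ± 0.14 (adjusted p = 1.67e-10).

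VIT_212s0059g01090 was the member higher in ‘Muscat Hamburg’ alone. It held 7, 6.36 and 5.29 FPKM in winter against 1.99, 0.90 and 0.99 FPKM in summer in that variety (log2 fold change 2.31 ± 0.29, adjusted p = 4.03e-07). In ‘Victoria’ the winter libraries, 2.39, 1.74 and 2.05 FPKM, overlapped the summer ones, 4.57, 2.32 and 2.36 FPKM (-0.57 ± 0.28, adjusted p = 0.0925). The members that passed the test in neither variety were VIT_204s0008g03030, with log2 fold changes of 0.48 ± 0.36 in ‘Muscat Hamburg’ (adjusted p = 0.294) and 0.16 ± 0.37 in ‘Victoria’ (adjusted p = 0.755), and VIT_206s0004g06935, with 1.39 ± 0.63 (adjusted p = 0.0753) and 1.10 ± 0.55 (adjusted p = 0.0971). Both were among the members with a winter mean under 10 FPKM at harvest.

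For members whose 3 summer libraries at E-L 36 all held 3 estimated counts or fewer, only a rough lower bound is given. It is the winter mean over the level that 3 counts in each summer library would give. It leaves out the error of the winter counts, and gives no margin where the summer counts themselves reached 3. There were 4 such genes in ‘Muscat Hamburg’ and 10 in ‘Victoria’. In ‘Victoria’ VIT_212s0134g00030 was at least 142-fold higher in winter, with 18.9, 18.2 and 19.6 FPKM against 0, 0 and 0.05 FPKM. In ‘Muscat Hamburg’ its winter libraries held 0.29, 0.76 and 0.52 FPKM against 0, 0.13 and 0.18 FPKM, which did not pass the test (adjusted p = 0.0803). VIT_202s0025g04230 was at least 80.6-fold higher in ‘Victoria’ and at least 9.35-fold higher in ‘Muscat Hamburg’, with winter libraries of 36.8, 33.7 and 31.0 FPKM and of 6.26, 4.29 and 2.28 FPKM. VIT_206s0004g01935 was at least 31.6-fold higher in ‘Muscat Hamburg’, and in ‘Victoria’, where its summer libraries held 0 to 3 counts, the value was 14.5-fold. For VIT_203s0038g02140 in ‘Victoria’ the value was 22.9-fold, which is near its observed ratio rather than a bound, since its summer libraries held 2 to 3 counts. VIT_217s0000g10090 was at least 14.5-fold higher in ‘Victoria’ but rested in ‘Muscat Hamburg’ on winter libraries of 0, 0.17 and 1.41 FPKM, that is mainly on replicate 3. VIT_219s0014g00440, the gene nearest to 0 in summer, was at least 5.93-fold higher in ‘Victoria’, with 14 to 20 counts in the winter libraries, and at least 1.06-fold in ‘Muscat Hamburg’, with 3 to 5.

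The season effect at E-L 36 differed between the varieties for 16 of the 44 tested members. It was larger in ‘Victoria’ for 13 (4.16% of all tested genes) and larger in ‘Muscat Hamburg’ for 3 (6.24%), a number near that share. The largest difference in a gene above the limit of detection was that of VIT_201s0010g02040, at -4.08 ± 0.55 (log2 fold change in ‘Muscat Hamburg’ minus that in ‘Victoria’, adjusted p = 8.08e-06). For VIT_204s0008g05770 the difference was -1.72 ± 0.25 (adjusted p = 1.68e-05): its season effect was 1.04 ± 0.17 in ‘Muscat Hamburg’ (adjusted p = 1.81e-05) and 2.76 ± 0.18 in ‘Victoria’ (adjusted p = 2.57e-12). The largest difference in the other direction was 2.88 ± 0.41 for VIT_212s0059g01090 (adjusted p = 1.48e-05), followed by 2.30 for VIT_204s0023g02480 and 1.61 ± 0.45 for VIT_211s0016g05320 (adjusted p = 0.0115). When the libraries of a group that differed by little more than sampling noise were summed and counted as 1, ‘Victoria’ winter E-L 36 was left with a lone library. That fit assumed it to vary like the other groups and could not measure its spread. The median log2 fold change of the members was then 2.27 in ‘Muscat Hamburg’ and 2.87 in ‘Victoria’, and the median difference was -0.84. Over all tested genes these medians were -0.0115, -0.0039 and -0.0125. For the season effect within ‘Muscat Hamburg’, replicate 3 of the winter group stood apart from the other libraries of its group. Without it 27 members passed the test as higher in winter in place of 34, against 1872 of 20153 tested genes.

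How far the winter rise had gone at E-L 36 was measured as the share of the log2 rise from E-L 35 to E-L 38 that was reached at E-L 36, from the group means with 0.5 FPKM added. This share uses the values that chose the genes and is a description. Its median was 49.4% in ‘Muscat Hamburg’ (-12.5% to 212%) and 67.3% in ‘Victoria’ (10.2% to 123%), and it was higher in ‘Victoria’ for 26 of the 45 genes. It was at least 50% for 22 genes in ‘Muscat Hamburg’, for 36 in ‘Victoria’ and for 19 in both. The late genes in ‘Muscat Hamburg’ included VIT_200s0253g00080 (-10.5%), VIT_208s0007g02770 (-12.5%) and VIT_216s0100g00700 (-4.00%), whose means at E-L 36 were below those at E-L 35, and VIT_212s0134g00030 (3.57%). In ‘Victoria’ the same 4 genes were at 67.2%, 47.2%, 47.3% and 82.2%. VIT_218s0001g02100 was late in both varieties, at 13.1% and 10.2%. The mean at E-L 36 was above that at E-L 38 for 4 genes in ‘Muscat Hamburg’ and 2 in ‘Victoria’. VIT_204s0023g02480 was among them in both, at 212% and 103%.

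**Figure D5:**
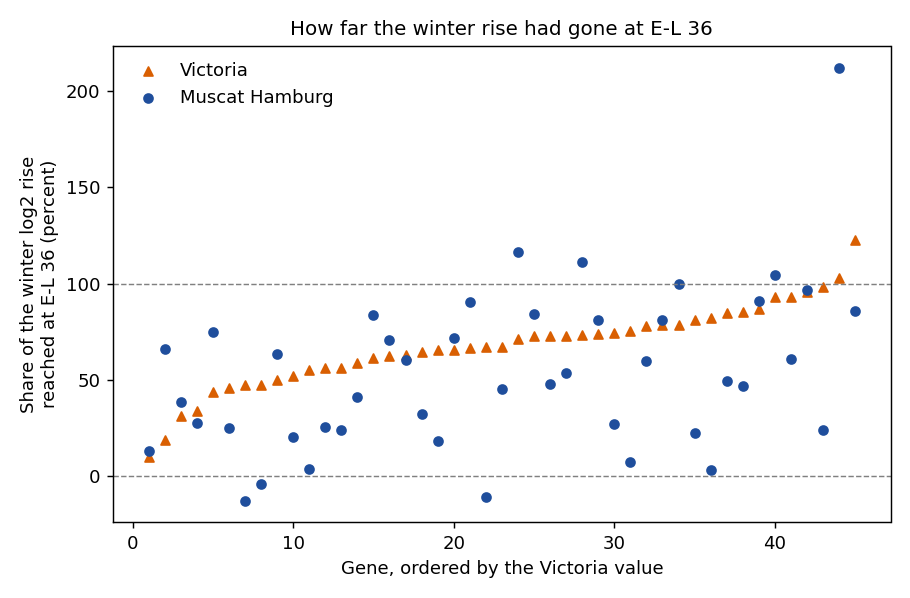
Share of the winter log2 rise from E-L 35 to E-L 38 that was reached at E-L 36 (y axis, percent; group means of 3 libraries plus 0.5 FPKM), with 1 point per gene and variety and the 45 genes ordered along the x axis by the ‘Victoria’ value; dashed lines mark the E-L 35 level (0%) and the E-L 38 level (100%). The ‘Victoria’ values run from 10.2% to 123% and those of ‘Muscat Hamburg’ from -12.5% to 212%.

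The members were compared with other genes in what the conditions did not use. Their listed length had a median of 1835 bases (114 to 4452), against 1473 over all listed genes and 1836 for the 11720 genes with at least 3 FPKM at the winter harvest in both varieties. Several transcripts were listed for 14 members (31.1%), against 30.6% of all listed genes and 48.3% of those at that level. Estimated counts that were not whole numbers, a sign of reads divided between genes, occurred for 10 members (22.2%), against 36.8% of all listed genes and 27.8% of those at that level. The flavonoid genes annotated in the study, which are the structural and regulatory genes of the pathway that makes anthocyanins, flavonols and flavanols, were chosen by the study on these samples. None of these 64 was among the members, which were 45 of 28119 listed genes, a share so small that none would be usual among 64 genes. A winter stage ratio of at least 3 in both varieties occurred in 1 of the 64, against 137 of all listed genes. This was the flavonol synthase VIT_218s0001g03430, with 4.11 in ‘Muscat Hamburg’ and 7.72 in ‘Victoria’. Its summer ratio was 2.05 in ‘Muscat Hamburg’ and 0.273 in ‘Victoria’, so it missed the conditions by the summer rise in ‘Muscat Hamburg’.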

How the data were processed

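The authors aligned single reads of 50 bp to the grapevine genome 12X V2 (Bowtie is named in the submitters' processing notes, version not given in the sources used here) and deposited for each library a list of genes with estimated counts, which are not normalized, and FPKM values. Genes missing from a list were set to 0. A table of 36 further FPKM columns, whose headings match no sample label, was not used. The members and lists were chosen with earlier results of these data known. No annotation of the gene IDs was used: 0 of them matched the RefSeq gene table, so the planned lists by product and the markers of seed and green tissue could not be used, and the members are given by ID without a role or a sequence.

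The rounded estimated counts were fitted by edgeR 4.0.16 under R 4.3.3 (filterByExpr, TMM, 12 groups in 1 quasi-likelihood model of all 36 libraries, common dispersion 0.0294). Winter was compared with summer at E-L 36 within each variety, and the difference of these effects was tested as a contrast. Calls needed a change of 2-fold or more and an adjusted p (Benjamini-Hochberg, over all tested genes) no higher than 0.05, the criteria named in the study's methods. The size of each log2 fold change over the root of its F statistic was taken as its standard error. Single genes were tested in this model alone, because exact permutation of 3 against 3 libraries goes no lower than p = 0.1. Statistics were tested on simulated data. Alternatives were DESeq2 1.42.0, limma 3.58.1 on log2(FPKM + 1) and log2(FPKM + 0.1), other scalings, filters and thresholds, thinning to the lowest total, a replicate block, each library left out in turn and, chosen after seeing the data, 3 libraries left out together or close libraries counted once. With 45 members, the genes named were those with the 12 highest winter harvest levels, the 8 largest values of the smaller winter ratio and the 4 genes on each side of a limit. Other members that are singled out, namely for the season effect at E-L 36, for low summer levels, for unequal levels or for neighbouring IDs, were chosen after their values were seen.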

Additional observations from a re-analysis of the deposited data

Results flagged for a closer look

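The season effect at E-L 36 (log2 fold change of winter over summer season berries in ‘Muscat Hamburg’ minus that in ‘Victoria’, edgeR, adjusted p of at most 0.05) differed by at least 2-fold between the varieties for 16 of the 44 tested genes. Of all 19736 tested genes, 6.24% differed in the direction of ‘Muscat Hamburg’ and 4.16% in that of ‘Victoria’. The 3 members in the direction of ‘Muscat Hamburg’ were near that share. Their difference was 2.88 for VIT_212s0059g01090, 2.30 for VIT_204s0023g02480 and 1.61 for VIT_211s0016g05320. In VIT_211s0016g05320 the winter libraries held 4.86, 5.71 and 6.66 FPKM in ‘Muscat Hamburg’ against 0.85, 0.38 and 0.52 FPKM in summer, and 11.1, 9.41 and 12.3 FPKM in ‘Victoria’ against 1.66, 5.05 and 4.44 FPKM, so that the larger effect stood beside the lower winter level.

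In the direction of ‘Victoria’ the difference was -4.08 for VIT_201s0010g02040, -2.86 for VIT_200s0253g00080, -1.72 for VIT_204s0008g05770, -1.71 for VIT_206s0004g03890 and -1.52 for VIT_200s0125g00190. It was -1.40 for VIT_208s0040g00510, -1.38 for VIT_208s0007g02770, -1.33 for VIT_202s0025g00810, -1.31 for VIT_200s0265g00070, -1.27 for VIT_211s0016g05600 and -1.21 for VIT_207s0005g01680. The fitted values of -3.65 for VIT_203s0038g02140 and -7.69 for VIT_212s0134g00030 depend on the prior count, since the summer libraries of ‘Victoria’ all held 3 counts or fewer. All 3 ‘Victoria’ winter libraries at E-L 36 differed by little more than sampling noise. With such libraries counted once, the median difference of the 44 tested genes was -0.84, against -0.86 with all libraries kept apart, but the spread of a lone library cannot be measured. The part of this in the 16 differences was not tested further.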

How the results depend on the processing

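The number of members moved by more than 1.5 times with a winter ratio of at least 2 (174) or 4 (24) or a winter level of at least 10 FPKM (26), and lay at 41 to 51 with 1 library left out. At E-L 36, 22 of 34 calls in ‘Muscat Hamburg’, 38 of 41 in ‘Victoria’ and 7 of 16 differences held under every alternative in which the gene was tested (18 of the members had at least 10 counts in every library), and no called value changed sign. With 1 library left out, members higher in winter numbered 27 to 35 in ‘Muscat Hamburg’ and 40 to 41 in ‘Victoria’. Over the 20151 to 20203 tested genes these numbers were 1819 to 1876 and 1868 to 2083. Differences numbered 2 to 4 in the direction of ‘Muscat Hamburg’ and 10 to 16 in that of ‘Victoria’, against 1023 to 1462 and 694 to 1079. With at least 10 counts in every library fewer genes were tested, and 14 and 17 of 18 members were higher, against 781 and 902 of 13300 tested genes. An adjusted p of 0.01 left 1 difference in the direction of ‘Muscat Hamburg’, against 725 of 19736 tested genes. Close libraries counted once left 1 and 8 differences. Without the 3 libraries closer to another group, 31 and 40 members were higher in winter, against 1989 and 2000 of 20124 tested genes.

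Over all genes, 1935 were higher and 1771 lower in winter in ‘Muscat Hamburg’, 1965 and 2689 in ‘Victoria’, and 1231 differences lay in the direction of ‘Muscat Hamburg’ and 821 in that of ‘Victoria’. With no fold change condition there were 4156 and 4275, 4919 and 5119, and 1879 differences in the direction of ‘Victoria’. At least 10 counts in every library gave 781 and 901, 902 and 1378, and 728 and 512 differences. Limma on log2(FPKM + 1) gave 1278 and 854, 1232 and 1687, and 542 differences in the direction of ‘Victoria’. An adjusted p of 0.01 gave 725 and 535 differences, only the libraries compared gave 532 in the direction of ‘Victoria’, and close libraries counted once gave 444 and 371. Library size alone gave 2134 and 1541, 1869 and 2821, and 1445 and 632 differences, and moved the median difference over all genes to 0.11 on the log2 scale. Leaving out 1 library gave 1819 to 1876 and 1658 to 1767 in ‘Muscat Hamburg’, 1868 to 2083 and 2516 to 2682 in ‘Victoria’, and 1023 to 1462 and 694 to 1079 differences.

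Some uncalled log2 fold changes changed sign when 1 E-L 36 library was left out. In ‘Muscat Hamburg’ VIT_200s0253g00080 ran from -0.18 (without winter replicate 3) to 2.07, VIT_201s0010g02040 from -0.12 (without winter replicate 3) to 0.76, VIT_208s0007g02770 from -0.028 (without winter replicate 1) to 0.24 and VIT_219s0090g01380 from -0.53 (without winter replicate 3) to 2.47. In ‘Victoria’ VIT_204s0008g03030 ran from -0.23 (without summer replicate 2) to 0.88, with -0.06 without winter replicate 3. With libraries thinned, VIT_201s0010g02040 was at -0.13 in ‘Muscat Hamburg’. With the replicate block 32 and 41 members were higher in winter, against 1926 and 1965 of 19736 tested genes. In that fit 3 and 13 differences passed, against 1197 and 816 over all tested genes. Same-numbered summer and winter libraries at E-L 36 correlated by -0.0068 to 0.00831 in their deviations from the group means. Differently numbered ones correlated by -0.0159 to 0.0153. No effect shared by replicate number was seen at this stage. Whether the numbers pair the samples cannot be told, since some of these libraries differed by little more than sampling noise. The causes of these shifts were not tested. Members with few counts in summer, 4 in ‘Muscat Hamburg’ and 10 in ‘Victoria’, have only rough lower bounds, and the depth cannot show whether they were silent.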
